A study of Sus scrofa with 24 samples.

Results

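The comparison was between pig intramuscular (IMF) and subcutaneous (BF) adipocytes on day 2 of differentiation in culture, in 6 of the 24 small RNA libraries of the study. The members are the 430 miRNA entries, of 1587 in the deposited table, whose mean over all 24 libraries reached 1 TPM. TPM is the authors' name for reads per 1000000 reads counted on miRNAs, and 270 of the 430 are known miRNAs and 160 are new ones predicted by the authors. Each group, BF-2d and IMF-2d, has 3 libraries. The cells came from Yorkshire piglets 6 days old: the BF preadipocytes from back subcutaneous fat and the IMF preadipocytes from the longissimus dorsi muscle, both freed with collagenase. No gene was altered in either group. Both were grown to near confluence and then given 3-isobutyl-1-methylxanthine, dexamethasone and insulin, and day 2 is the end of that induction. The study used 3 piglets, and the labels do not tie a library to a piglet, so the p-values measure the spread between the libraries.

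miRNAs are short RNAs that guide the silencing of mRNAs, and the bases near the 5′ end, the seed, choose the targets. Many are cut from shared transcripts, so that neighbours in the genome are often made together. Several known regulators of fat cells are miRNAs: miR-378 lies within a gene for a mitochondrial coactivator and promotes fat storage, the miR-30 family promotes the conversion of preadipocytes, and miR-138 restrains it. Others, such as the miR-196 and miR-10 families of the HOX clusters, are known as marks of the body region a cell comes from.

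On day 2, 53 of the 430 entries (12.3%) were DE-miRNAs, meaning limma FDR under 0.05 and a fold change above 1.5 on the log2(TPM + 1) scale. Of these 25 (5.81%) were higher and 28 (6.51%) lower in IMF. In all 53 the 3 libraries of IMF lay entirely above or below the 3 of BF, a separation seen in 143 of the 430 entries (33.3%). Among known miRNAs 15 were higher and 27 lower, and among new entries 10 were higher and 1 lower. The DE-miRNAs higher in IMF were led by ssc-miR-196b-5p, by miRNAs of the imprinted DLK1-DIO3 region and by the miR-183, miR-96 and miR-182 cluster. Those lower in IMF were led by ssc-miR-30b-5p, by miR-424, miR-542 and miR-450 members of an X-linked cluster, and by ssc-miR-378. The share of calls that were higher depends on how libraries are scaled: it was 47.2% on TPM and 60.0% of 60 calls with median-of-ratios scaling, which moved the median difference of all entries by 0.13 on the log2 scale.

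**Figure D1:**
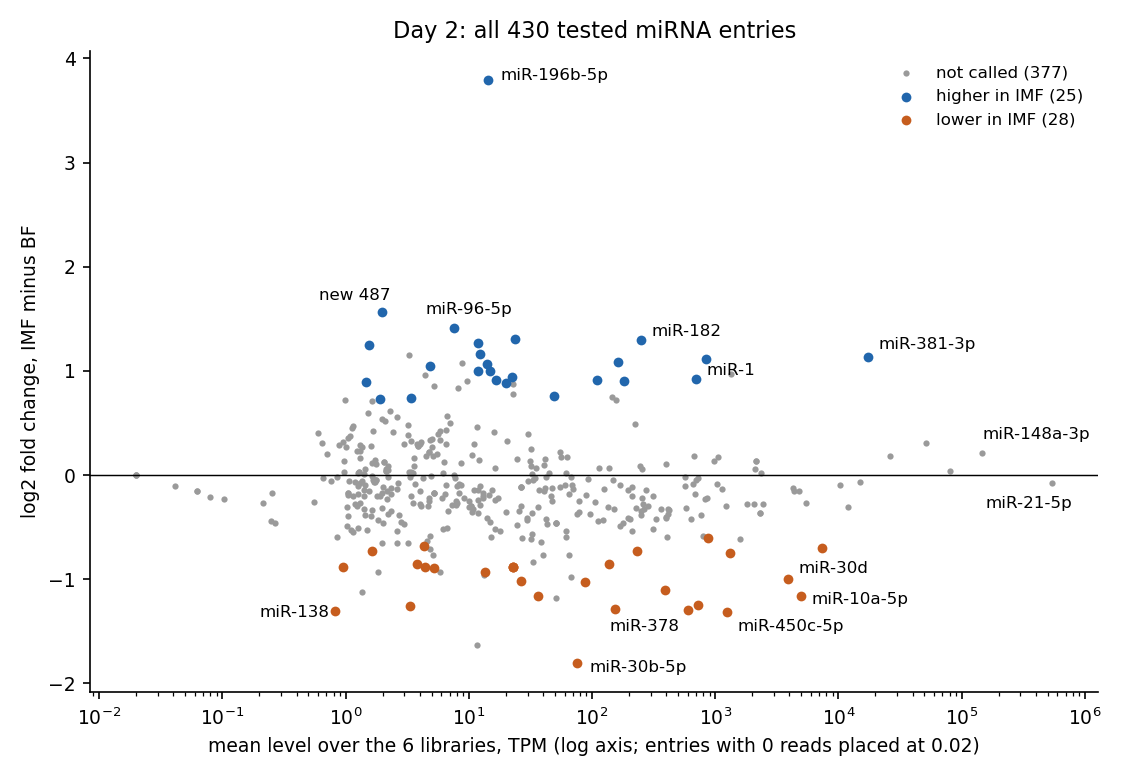
Mean level over the 6 day-2 libraries (TPM, log axis) against the log2 fold change, IMF minus BF, for the 430 tested entries, with the 25 called higher in IMF in blue, the 28 called lower in orange and the rest in grey. ssc-miR-196b-5p stands alone at 3.79 and the calls are spread over rare and abundant entries alike. The 3 entries with 0 reads in the 6 libraries are placed at 0.02 TPM.

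The mature sequences of the miRNAs that carry the comparison are shown first, 5′ to 3′, with the seed (bases 2 to 8) in capitals. They come from the RefSeq annotation of Sscrofa11.1 where it holds the mature miRNA and otherwise from the study's list of mature sequences. Of the 430 entries 339 had a sequence, 207 from RefSeq and 132 from the list. First are the HOX-cluster miRNAs, in which the same seed occurs in a pair of miRNAs:
ssc-miR-196a: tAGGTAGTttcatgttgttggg
ssc-miR-196b-5p: tAGGTAGTttcctgttgttggg
ssc-miR-10a-5p: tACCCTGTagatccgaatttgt
ssc-miR-10b: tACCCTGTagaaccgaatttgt

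Counting from 1 at the 5′ end, the first pair differs at A12C and the second at T12A. The next set was higher in IMF. It holds miRNAs of the DLK1-DIO3 region, 3 new entries found beside them on the same unplaced scaffold, the 3 members of the miR-183 cluster, and ssc-miR-1:
ssc-miR-493-5p: tTGTACATggtaggctttcatt
ssc-miR-432-5p: tCTTGGAGtaggtcattgggt
ssc-miR-323: gCACATTAcacggtcgacctct
ssc-miR-758: tTTGTGACctggtccactaac
ssc-miR-381-3p: tATACAAGgacaagctctctgt
novel_miR_716: aAACAAACatggtgcacttctt
novel_miR_1112: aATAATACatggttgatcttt
novel_miR_1205: aTAATACAtggttaacctcttt
ssc-miR-183: tATGGCACtggtagaattcactg
ssc-miR-96-5p: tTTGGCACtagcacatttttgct
ssc-miR-182: tTTGGCAAtggtagaactcacact
ssc-miR-1: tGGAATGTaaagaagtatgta

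The last set was lower in IMF. It shows which lower miRNAs share a seed and which neighbours on the X chromosome do not:
ssc-miR-424-5p: cAGCAGCAattcatgttttgaa
ssc-miR-542-3p: tGTGACAGattgataactgaaa
ssc-miR-450a: tTTTGCGAtgtgttcctaatat
ssc-miR-450c-5p: tTTTGCGAtgtgttcctaatac
ssc-miR-450b-5p: tTTTGCAAtatgttcctgaata
ssc-miR-106a: aAAAGTGCttacagtgcaggtagc
ssc-miR-20b: cAAAGTGCtcacagtgcaggtag
ssc-miR-20a-5p: tAAAGTGCttatagtgcaggta
ssc-miR-363: aATTGCACggtatccatctgtaa
ssc-miR-92a: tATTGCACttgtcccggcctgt
ssc-miR-30b-5p: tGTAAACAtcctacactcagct
ssc-miR-30c-5p: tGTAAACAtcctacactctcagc
ssc-miR-30d: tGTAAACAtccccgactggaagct
ssc-miR-378: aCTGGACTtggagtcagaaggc
ssc-miR-378b-3p: aCTGGACTtggagtcagaagt
ssc-miR-138: aGCTGGTGttgtgaatcaggc

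The 6 libraries held 8078414 to 13093241 reads on miRNAs, so that 3 reads, the floor used here for a detected miRNA, are worth 0.229 to 0.371 TPM. ssc-miR-21-5p took 51.1% to 56.8% of the reads of a library. BF-2d replicate 3 stood apart: its mean absolute log2 difference to the other libraries of its group was 0.409, against 0.212 to 0.287 in the other 5. Without it limma called 85 entries, 26 higher and 59 lower in IMF, and 50 of the 53 were among them. When any of the 6 libraries was left out, the number called ranged from 2 to 85. ssc-miR-196b-5p and ssc-miR-378 alone were called in all 6 of those fits. The direction of the 53 could not turn in these fits, since their libraries did not overlap between the sources. Levels of miRNAs abundant in mesenchymal cells and preadipocytes were high in both sources: miR-143 and miR-145 together made up 75846 to 84633 TPM in BF and 78512 to 91038 TPM in IMF, and none of their 4 entries was called.

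The miR-196 family gave the largest difference. ssc-miR-196b-5p, from the HOXA cluster near HOXA9 and HOXA10 (Sscrofa11.1 chr18:45404319-45404396, plus strand), stood at 1.49, 1.07 and 0.682 TPM in the 3 BF libraries. It stood at 28.5, 26.0 and 28.0 TPM in the 3 IMF libraries. These are 32 reads in BF and 808 reads in IMF in all, so the miRNA was close to the lower end of detection in BF and clearly present in IMF. The mean was 25.5 times higher in IMF, and the log2 fold change on log2(TPM + 1) was 3.79 ± 0.18 (SE, limma FDR = 0.000173). ssc-miR-196a shares its seed and comes from 2 precursors, near HOXC9 and HOXC10 and near HOXB8. It stood at 0.743, 0.687 and 0.114 TPM in BF and at 2.20, 2.41 and 3.07 TPM in IMF. The groups did not overlap and the log2 fold change was 1.25 ± 0.21 (SE, limma FDR = 0.0183), but all 16 reads of BF lie near the floor.

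ssc-miR-10a-5p of the same clusters was lower in IMF. This miRNA, on chr12:24833644-24833723 (minus strand) near HOXB3, stood at 5624, 6668 and 8196 TPM in BF and at 2821, 3670 and 2660 TPM in IMF. It was 2.24 times higher in BF, with no overlap and a log2 fold change of -1.16 ± 0.18 (SE, limma FDR = 0.0155). ssc-miR-10b, with the same seed, on chr15:81951644-81951723 (plus strand), stood between 10590 and 16197 TPM in BF and between 9218 and 13238 TPM in IMF. These ranges overlap, and the log2 fold change of -0.31 ± 0.20 (SE) was not called (limma FDR = 0.36). Of the 6 tested entries of the HOX clusters 2 were called higher (5.81% of all entries) and 1 lower (6.51%) in IMF, with and without BF-2d replicate 3. Of these 2, ssc-miR-196a passed the filter of 1 TPM through IMF alone, with BF means from 0.331 to 0.597 TPM over the 4 days. The count is thus not independent of the filter.

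**Figure D2:**
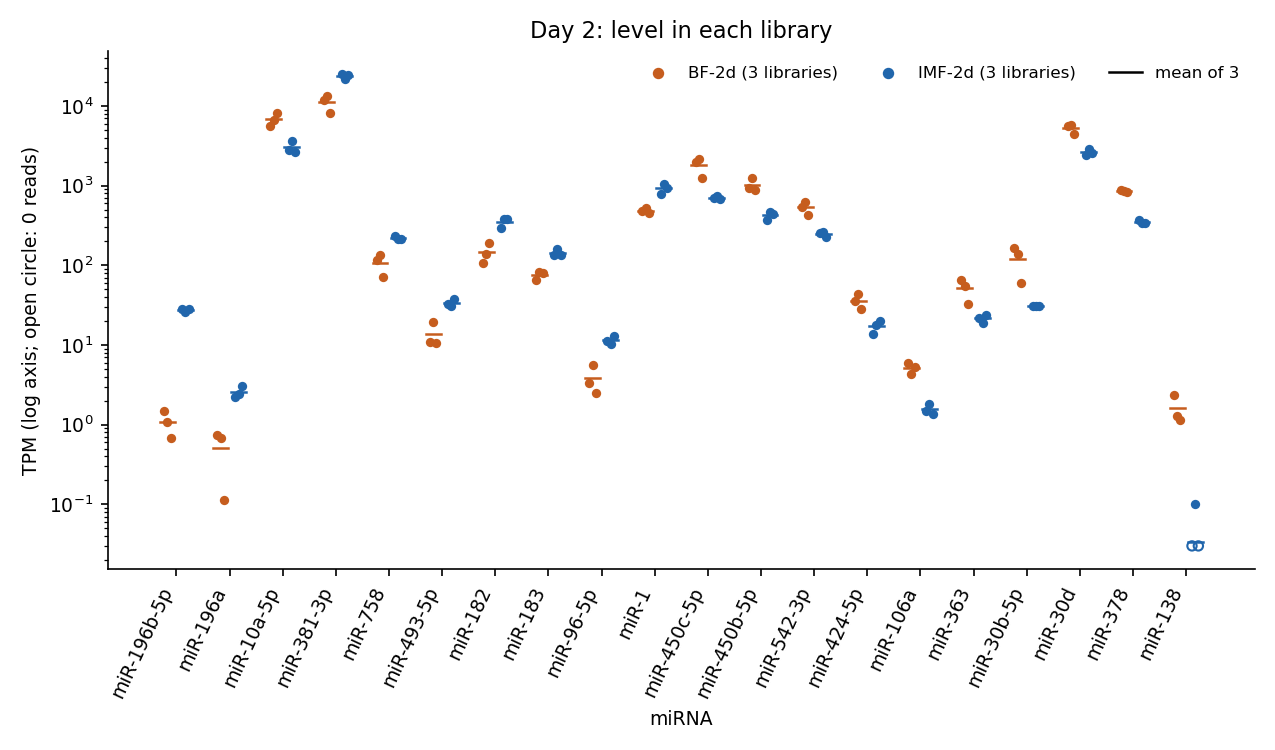
Level (TPM, log axis) of 20 DE-miRNAs in each of the 3 BF-2d libraries (orange) and the 3 IMF-2d libraries (blue), with a bar at the mean of 3 and open circles for 0 reads. The groups do not overlap for any of the 20, and the distance between them is largest for miR-196b-5p and miR-138.

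The DLK1-DIO3 region is imprinted, and its large group of miRNAs is made from the maternal chromosome. All 13 tested members of the list for this region were above BF in IMF, with a median log2 fold change of 1.07 against -0.14 over all 430 entries. Of the 13, 7 were called higher, none was called lower, and in 12 the libraries did not overlap (12.8% of all entries lay above BF without overlap). Without BF-2d replicate 3 the median was 0.78 and 8 were called, and with median-of-ratios scaling it was 1.21 and 11 were called. ssc-miR-381-3p was by far the most abundant of them. It stood at 11961, 13203 and 8101 TPM in BF and at 24937, 21987 and 24501 TPM in IMF. The lowest IMF library was well above the highest BF library, and the log2 fold change was 1.13 ± 0.19 (SE, limma FDR = 0.0183). It was 0.92 without BF-2d replicate 3, the lowest of the 3.

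ssc-miR-493-5p, at chr7:121697837-121697919 (plus strand) near RTL1, stood at 11.02, 19.3 and 10.5 TPM in BF. In IMF it stood at 32.7, 31.3 and 38.1 TPM. The log2 fold change was 1.31 ± 0.25 (SE, limma FDR = 0.0235), and the other arm of the same precursor, ssc-miR-493-3p, was also called, at 1.004 ± 0.235 (SE, limma FDR = 0.0415). ssc-miR-432-5p and ssc-miR-136-3p lie on the strand opposite an exon of RTL1, at chr7:121711137-121711216 and chr7:121711328-121711409, and were called at log2 fold changes of 1.07 ± 0.23 and 0.91 ± 0.21 (SE). Their neighbour ssc-miR-127 reached 1054, 1255 and 547 TPM in BF and 1808, 1704 and 1757 TPM in IMF. Its libraries did not overlap, and its log2 fold change of 0.97 ± 0.30 (SE) did not pass (limma FDR = 0.0932). ssc-miR-127 was called with median-of-ratios scaling (FDR = 0.0147), by edgeR (FDR = 0.00306), by DESeq2 (FDR = 1e-06) and without BF-2d replicate 3 (log2 fold change 0.61, FDR = 0.0142).

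Other members of the region lie in this assembly on a scaffold that is not placed on a chromosome. There 15 tested entries, each within 10 kb of the next, hold 6 known miRNAs and 9 new entries. The 6 known miRNAs are among the 13 of the list above, and the 9 new entries are not. All 15 were above BF in IMF, 6 were called (5.81% of all entries were called higher) and 10 did not overlap (12.8%). The called known members were ssc-miR-323, ssc-miR-758 and ssc-miR-381-3p, and the called new entries novel_miR_716, novel_miR_1112 and novel_miR_1205. novel_miR_716 stood at 16.1, 15.9 and 13.4 TPM in BF and at 27.7, 32.9 and 29.2 TPM in IMF. Its log2 fold change was 0.94 ± 0.14 (SE, limma FDR = 0.0132), close to that of ssc-miR-758 at 1.08 ± 0.24 (SE, limma FDR = 0.0358). ssc-miR-758 stood between 71.1 and 134 TPM in BF and between 213 and 232 TPM in IMF.

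The cluster of miR-183, miR-96 and miR-182, known from sensory and epithelial cells, was higher in IMF in all its 3 members. They lie at chr18:18982269-18986913 (plus strand). ssc-miR-182, the most abundant, stood at 108, 140 and 189 TPM in BF and at 297, 381 and 379 TPM in IMF. ssc-miR-183 stood at 65.6, 81.4 and 80.1 TPM in BF and at 136, 159 and 134 TPM in IMF. ssc-miR-96-5p was rarer, at 3.34, 5.65 and 2.50 TPM in BF and 11.3, 10.2 and 12.8 TPM in IMF. None of the 3 overlapped between the sources, and the log2 fold changes were 1.30 ± 0.23, 0.91 ± 0.14 and 1.41 ± 0.26 (SE), with limma FDR of 0.0206, 0.014 and 0.0217. In the fit of all 24 libraries the ssc-miR-182 log2 fold change on day 2 did not pass (limma FDR = 0.0524), nor did the ssc-miR-183 log2 fold change (limma FDR = 0.189). These 3 are also the tested members of the list of epithelial markers, whose sum was 177 to 272 TPM in BF and 445 to 551 TPM in IMF. The other epithelial miRNAs ssc-miR-200b, ssc-miR-141, ssc-miR-429 and ssc-miR-205 were at or under 3 reads in each of the 6 libraries, and ssc-miR-375 exceeded 3 reads in BF-2d replicate 2 alone and was not tested.

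ssc-miR-1 is a muscle miRNA that promotes muscle differentiation. It stood at 484, 519 and 450.3 TPM in BF and at 788, 1040 and 945 TPM in IMF. The libraries did not overlap, and the log2 fold change was 0.92 ± 0.13 (SE, limma FDR = 0.0132). Of the 7 muscle miRNAs that the deposited values hold, 3 were tested and 1 was called, against 12.3% of all entries. ssc-miR-133a-3p, another muscle miRNA, was 9.90, 10.7 and 8.75 TPM in BF and 12.5, 13.5 and 10.8 TPM in IMF and was not called (limma FDR = 0.243). ssc-miR-499-5p was lower in IMF in all libraries, at 13.2, 11.5 and 11.3 TPM against 19.4, 14.1 and 15.6 TPM, and was not called either (limma FDR = 0.158). The summed muscle list, nearly all of it ssc-miR-1, was 475 to 544 TPM in BF and 814 to 1065 TPM in IMF, while ssc-miR-499-3p had 0 reads in all 6. The part of muscle cells in the difference of ssc-miR-1 was not tested. In such bulk libraries more cells of a type and more RNA per cell cannot be told apart.

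ssc-miR-708 lies in an intron of TENM4, a gene for a membrane protein of the teneurin family, on the same strand (chr9:13780171-13780250, minus strand). Its abundant arm, ssc-miR-708-3p, stood at 139, 114 and 124 TPM in BF and at 256, 234 and 217 TPM in IMF. Its other arm, ssc-miR-708-5p, stood at 33.9, 32.3 and 43.5 TPM in BF and at 55.1, 69.6 and 62.5 TPM in IMF. Both arms were called higher in IMF, at log2 fold changes of 0.90 ± 0.13 and 0.76 ± 0.16 (SE, limma FDR = 0.0132 and 0.0334).

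Among the other new entries called higher in IMF, novel_miR_650 was the most abundant. It stood at 541, 678 and 400.2 TPM in BF and at 1120, 1056 and 1271 TPM in IMF, without overlap (log2 fold change 1.12 ± 0.20, SE, limma FDR = 0.0217). novel_miR_487 was rare, at 0.619, 0.687 and 0.227 TPM in BF and 3.90, 2.91 and 3.50 TPM in IMF. It passed the filter through IMF alone, with BF means from 0.460 to 0.511 TPM over the 4 days. It had the second largest positive log2 fold change of the 430, 1.56 ± 0.17 (SE, limma FDR = 0.01). The single new entry called lower was novel_miR_568, at 1.61, 2.75 and 2.61 TPM in BF and 0.899, 1.11 and 0.953 TPM in IMF (log2 fold change -0.73 ± 0.17, SE, limma FDR = 0.0415). It was not called with median-of-ratios scaling, edgeR or DESeq2 (FDR = 0.0755, 0.0669 and 0.240).

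A group lower in IMF throughout was the cluster of miR-424, miR-503, miR-542 and miR-450 on the X chromosome, whose members are known to slow the cell cycle and to be made with the lncRNA host gene of this cluster. All 10 tested entries, within chrX:110381587-110387981 on the minus strand, were below BF in IMF, with a median log2 fold change of -1.14 against -0.14 over all entries. Of the 10, 5 were called lower, and 7 did not overlap (20.5% of all entries lay below BF without overlap). Without BF-2d replicate 3, and likewise with median-of-ratios scaling, 7 were called. ssc-miR-450c-5p, the most abundant, stood at 1965, 2175 and 1261 TPM in BF and at 699.7, 733 and 677 TPM in IMF. ssc-miR-450b-5p stood at 939, 1237 and 875 TPM in BF and at 369, 466 and 437 TPM in IMF. ssc-miR-542-3p stood at 546, 624 and 431 TPM in BF and at 252, 260.5 and 226 TPM in IMF. The IMF libraries lay close together while BF-2d replicate 3 was the lowest of BF in each of these 3.

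The log2 fold changes in this cluster were -1.32 ± 0.21 for ssc-miR-450c-5p, -1.29 ± 0.19 for ssc-miR-450a, -1.25 ± 0.17 for ssc-miR-450b-5p and -1.10 ± 0.16 for ssc-miR-542-3p (SE, limma FDR from 0.0132 to 0.0155). ssc-miR-450a and ssc-miR-450c-5p differ at the last base alone (T22C), so their counts cannot be fully told apart. ssc-miR-424-5p, which shares its seed with the miR-15 and miR-16 family, stood at 35.4, 43.9 and 28.4 TPM in BF and at 13.8, 17.99 and 19.7 TPM in IMF. It was called at -1.02 ± 0.21 (SE, limma FDR = 0.0304). Its other arm ssc-miR-424-3p and its neighbour ssc-miR-503 had larger differences, -1.63 ± 0.43 and -1.18 ± 0.31 (SE), without overlap, and missed the threshold (limma FDR = 0.0592 for each). Both were called with median-of-ratios scaling, edgeR and DESeq2 and without BF-2d replicate 3. The 5 tested members of the miR-15 and miR-16 family itself, made elsewhere in the genome, were not called, at log2 fold changes from -0.41 to 0.56.

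On the same strand of the X chromosome, at chrX:110113552-110114468, lies the miR-106a-363 cluster, a paralog of miR-17-92, whose members promote proliferation. Its 5 tested entries were all below BF in IMF without overlap (20.5% of all entries), and 4 were called lower (6.51%). ssc-miR-106a stood at 5.94, 4.28 and 5.23 TPM in BF and at 1.498, 1.81 and 1.38 TPM in IMF. ssc-miR-363 stood at 66.2, 54.5 and 32.6 TPM in BF and at 21.8, 19.0 and 23.7 TPM in IMF. Their log2 fold changes were -1.26 ± 0.15 and -1.16 ± 0.27 (SE, limma FDR = 0.0132 and 0.0415), and that of ssc-miR-20b was -0.88 ± 0.18 (SE, limma FDR = 0.0304). The fourth, ssc-miR-92a, has a second precursor in the miR-17-92 cluster on chromosome 11, and its reads cannot be divided between them. At that cluster all 7 tested entries were below BF, and ssc-miR-20a-5p and ssc-miR-92a were called, at -0.73 ± 0.15 and -0.60 ± 0.13 (SE, limma FDR = 0.0304 and 0.0324). With median-of-ratios scaling neither was called (FDR = 0.0726 and 0.074), and 3 of the 4 of the X-linked cluster were.

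**Figure D3:**
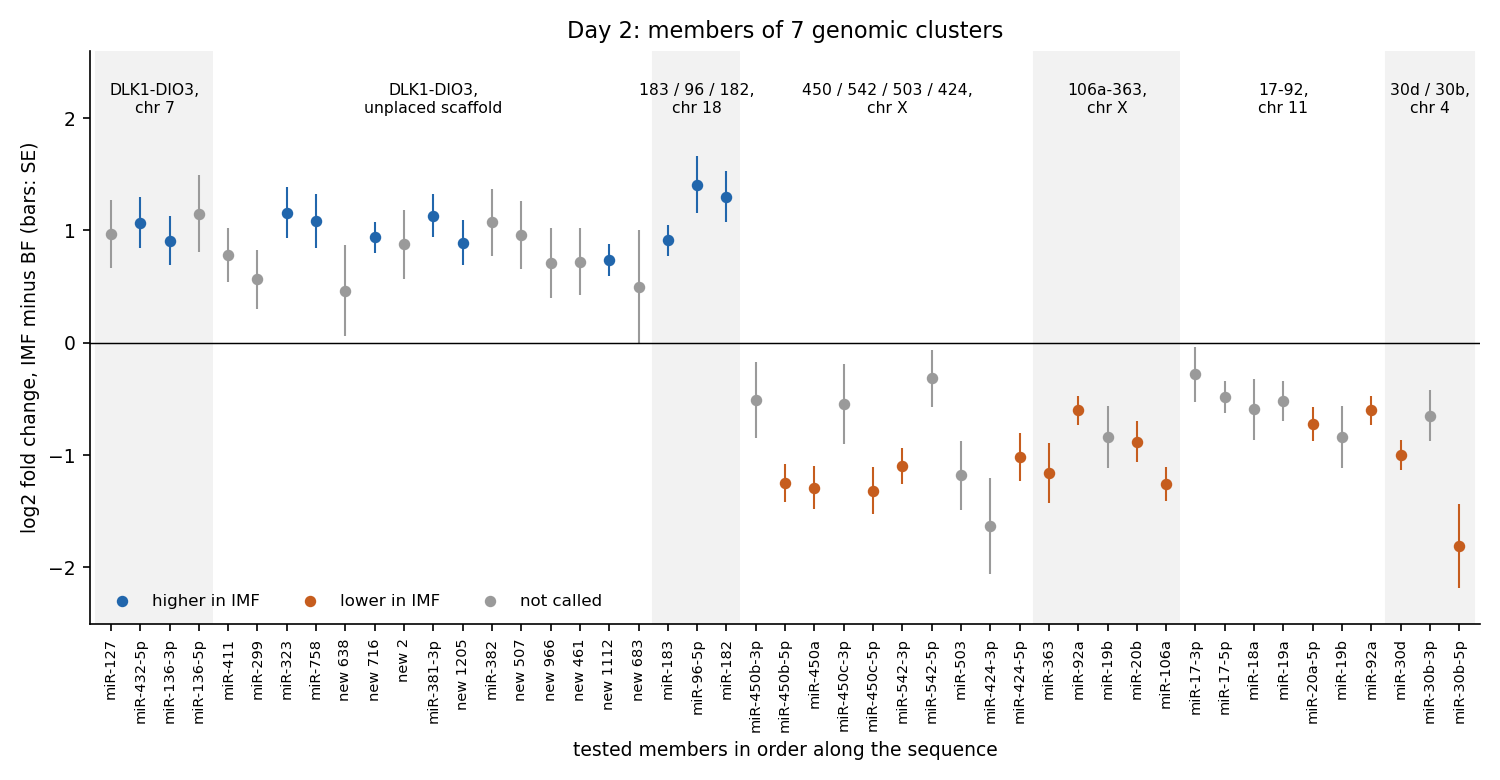
Log2 fold change, IMF minus BF, with SE bars, for the tested members of 7 genomic clusters in order along the sequence, with called members in blue (higher in IMF) or orange (lower). All members of each cluster lie on one side of 0, above it for the DLK1-DIO3 region and miR-183, miR-96 and miR-182, and below it for the others. ssc-miR-19b and ssc-miR-92a have precursors in both miR-106a-363 and miR-17-92 and are drawn in each.

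Of the 10 tested arms of the miR-30 family 4 were called lower in IMF (6.51% of all entries). All 10 lay below BF, in 9 without overlap (20.5% of all entries), with a median log2 fold change of -0.62 against -0.14 over all entries. ssc-miR-30b-5p had the largest negative difference of all known miRNAs called. It stood at 167, 138 and 59.5 TPM in BF and at 31.1, 30.9 and 31.3 TPM in IMF. The IMF libraries were nearly equal and BF was spread, so the log2 fold change was -1.81 ± 0.37 (SE, limma FDR = 0.0304) and -2.25 without BF-2d replicate 3. ssc-miR-30d, from the same cluster on chromosome 4, stood at 5558, 5721 and 4413 TPM in BF and at 2422, 2860 and 2537 TPM in IMF. It was called at -0.999 ± 0.133 (SE, limma FDR = 0.0132). ssc-miR-30c-5p was called at -0.85 ± 0.15 and ssc-miR-30c-3p at -0.89 ± 0.13 (SE, limma FDR = 0.0191 and 0.0132). ssc-miR-30a-5p and ssc-miR-30e-5p, which carry the same seed as ssc-miR-30b-5p, were not called (log2 fold change -0.58 and -0.51). Without BF-2d replicate 3, 8 of the 10 were called lower, and 59 of all 430 entries.

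The libraries of each source lay close together for ssc-miR-378. It stood at 889, 861 and 832 TPM in BF and at 374, 339.9 and 337 TPM in IMF. All BF libraries were far above those of IMF, and the log2 fold change was -1.30 ± 0.10 (SE, limma FDR = 0.00147). ssc-miR-378b-3p, which shares its seed, was called at -0.93 ± 0.21 (SE, limma FDR = 0.04), from 18.6, 20.01 and 15.6 TPM in BF to 9.99, 6.53 and 10.8 TPM in IMF. ssc-miR-138 was rare in both sources. It had 46 reads in the BF libraries and 1 read in the IMF libraries, a ratio of their TPM of 45.1 with an exact 95% interval from 7.70 to 1820 that covers counting error only. On the log2(TPM + 1) scale the difference was -1.30 ± 0.19 (SE, limma FDR = 0.0132). ssc-miR-138 passed the filter through BF alone, with IMF means from 0.0335 to 0.484 TPM over the 4 days.

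Among the 15 tested miRNAs described as promoting adipogenesis, 5 were called lower in IMF and none higher: ssc-miR-378, ssc-miR-378b-3p, ssc-miR-30c-5p, ssc-miR-30d and ssc-miR-92a. Over all entries 6.51% were called lower, and the median of the list was -0.38 against -0.14 over all entries and -0.18 over the known miRNAs. The list's most abundant members were not called: ssc-miR-21-5p stood between 544890 and 568105 TPM in BF and between 511388 and 548645 TPM in IMF (log2 fold change -0.07 ± 0.06, SE, and 0.07 with median-of-ratios scaling), and ssc-miR-148a-3p between 132855 and 140561 TPM in BF and between 143722 and 175260 TPM in IMF (0.21 ± 0.09, SE, limma FDR = 0.186). Among the 12 tested miRNAs described as restraining adipogenesis, ssc-miR-138 alone was called, a share near that of all entries, and the median was -0.26. Both medians are closer to 0 with median-of-ratios scaling, -0.24 and -0.13. Of 6 tested regulators of brown fat ssc-miR-196a alone was called, a share near the 12.3% of all entries.

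Other DE-miRNAs lower in IMF were spread over the genome. ssc-miR-199b-5p, from the strand opposite DNM1 and abundant in mesenchymal cells, stood at 8547, 9261 and 9502 TPM in BF and at 4960.0, 5940 and 5947 TPM in IMF (log2 fold change -0.70 ± 0.11, SE, limma FDR = 0.0132). It was not called with median-of-ratios scaling (FDR = 0.0755), and none of the other 5 entries of miR-199 and miR-214 was called. ssc-miR-340, in an intron of RNF130 on the same strand, stood at 118, 139 and 94.97 TPM in BF and at 60.1, 63.7 and 46.5 TPM in IMF (-1.03 ± 0.19, SE, limma FDR = 0.0235). ssc-miR-9, a neural miRNA, is listed as 3 entries with identical values, 27.9, 36.0 and 25.7 TPM in BF and 15.4, 15.0 and 16.4 TPM in IMF. It counts 3 times among the 53 calls (-0.88 ± 0.16, SE, limma FDR = 0.0217). Of the 7 tested entries of the neural list these 3 were called lower (6.51% of all entries). The other 4 went the other way, at log2 fold changes up to 0.25, and were not called. Of let-7 and miR-98, 11 entries were tested and ssc-let-7c alone was called (-0.74 ± 0.18, SE, limma FDR = 0.0475), while the most abundant, ssc-let-7i-5p, lay above BF at 0.31 ± 0.10 (SE, limma FDR = 0.0932). With median-of-ratios scaling ssc-let-7c was not called (FDR = 0.0563) and 1 other member of the list was called higher.

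In several lists limma called nothing. The 4 tested entries of the miR-29 family, which restrains collagen genes, had log2 fold changes from -0.64 to 0.38. ssc-miR-155-5p and ssc-miR-146a-5p, regulators of inflammation, were not called at -0.40 ± 0.19 and -0.97 ± 0.33 (SE, limma FDR = 0.227 and 0.119), though edgeR and DESeq2 called ssc-miR-146a-5p lower in IMF (log2 fold change -0.89 and -0.88, FDR = 0.0148 and 0.00133). ssc-miR-146a-5p stood between 50.2 and 124 TPM in BF and between 38.6 and 46.3 TPM in IMF. The other tested member of this list, ssc-miR-146b, was above BF at 0.43 ± 0.21 (SE, limma FDR = 0.245) and was not called. The 3 tested blood and endothelial miRNAs were not called either, and their list summed to 28.4 to 55.3 TPM in BF and 26.2 to 28.8 TPM in IMF. ssc-miR-144 and ssc-miR-223 had 0 reads in all 6 libraries. Without BF-2d replicate 3, 1 entry in each of these 3 lists was called lower. ssc-miR-210, ssc-miR-129b, ssc-miR-370 and ssc-miR-874, also chosen for qRT-PCR, were not called, at log2 fold changes from 0.02 to 0.75. Without BF-2d replicate 3 these ran from -0.27 to 0.19, and their median went from 0.11 to -0.16.

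The strands of one precursor went together. Both arms were tested for 55 known precursors. In the 10 with a call the arms had the same direction, as had 46 of all 55, and both arms were called for miR-493 and miR-708. By seed, against the 6.51% called lower over all entries, 3 of the 4 tested miRNAs with the seed of ssc-miR-106a were called lower in IMF, 3 of the 5 with the seed of ssc-miR-30b-5p, and 1 of the 8 with the seed of let-7. Of the 10 most abundant entries, ssc-miR-381-3p and ssc-miR-199b-5p were called, beside 12.3% of all entries.

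The difference between the sources on day 2 was set beside that on the other days, which use other libraries. Of the 53, 39 were also called on day 0, 43 on day 4 and 45 on day 8, which is 73.6%, 81.1% and 84.9% of the 53, against 29.3%, 36.3% and 37.2% of the 430 entries called on those days. As shares of the calls of those days they are 31.0%, 27.6% and 28.1%, against the 12.3% of entries called on day 2. The direction was the same in all 39, all 43 and 42 of the 45. On all 4 days 29 were called, 18 higher and 11 lower in IMF. Among them, ssc-miR-196b-5p had log2 fold changes of 3.69, 3.79, 3.71 and 4.21 in the order of the days, and ssc-miR-378 of -1.66, -1.30, -1.497 and -1.69. There were 3 that passed the threshold on day 2 and on no other day, ssc-miR-1, ssc-miR-30c-3p and novel_miR_568. A test of the difference between days bears on each: ssc-miR-1 departed from days 4 and 8, ssc-miR-30c-3p from day 8 (limma FDR = 0.0147), and novel_miR_568, whose call depends on the tool, from no day (limma FDR = 0.596, 0.838 and 0.791 for days 0, 4 and 8).

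**Figure D4:**
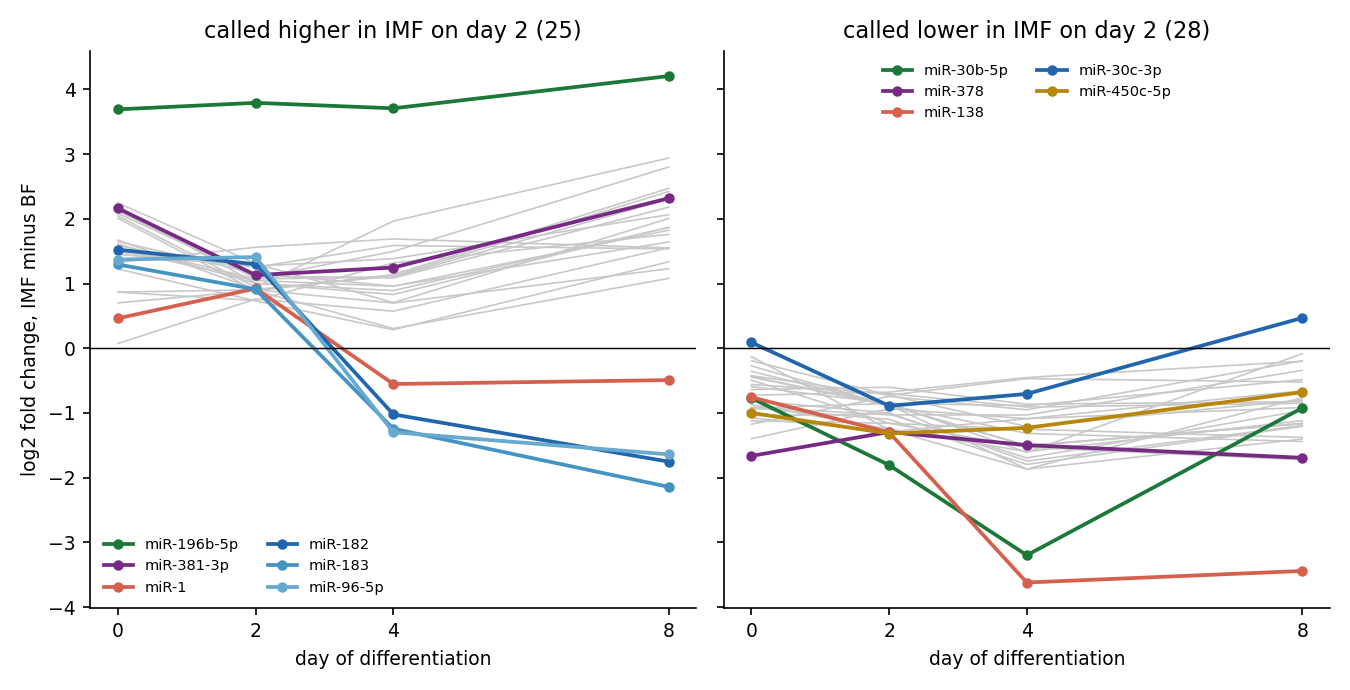
Log2 fold change, IMF minus BF, over the course of differentiation (days 0, 2, 4 and 8) for the 25 DE-miRNAs called higher (left) and the 28 called lower (right) in IMF on day 2, with named ones in colour. miR-182, miR-183, miR-96-5p and miR-1 cross 0 between days 2 and 4, and miR-196b-5p stays between 3.69 and 4.21.

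Whether the difference itself changed was tested as a contrast of contrasts over all 24 libraries. The difference on day 2 departed from that on day 0 for 10 entries (2.33% at limma FDR under 0.05), from that on day 4 for 33 (7.67%) and from that on day 8 for 56 (13.0%). For the miR-183 cluster the direction on day 8 was opposite to that on day 2. ssc-miR-182 was higher in IMF on day 2, at 1.30, and lower on day 8, at -1.75. On day 4 it stood at -1.02, which was not called (limma FDR = 0.195), nor were ssc-miR-183 and ssc-miR-96-5p on that day (limma FDR = 0.124 and 0.103). The change of ssc-miR-182 was 2.32 ± 0.65 (SE, limma FDR = 0.0262) against day 4 and 3.05 ± 0.65 (SE, limma FDR = 0.00149) against day 8. ssc-miR-183 and ssc-miR-96-5p changed by 3.05 ± 0.63 and 3.05 ± 0.64 (SE) against day 8 (limma FDR = 0.00117 and 0.00138). In BF the mean of ssc-miR-182 was 145 ± 40.7 TPM on day 2 and 1290 ± 364 TPM on day 8 (SD, n = 3), and in IMF 352 ± 47.9 TPM and 372 ± 39.6 TPM (SD, n = 3). On day 4 the BF libraries were widely spread, at 848 ± 927 TPM (SD, n = 3).

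ssc-miR-1 changed by 1.48 ± 0.34 (SE, limma FDR = 0.00985) against day 4 and by 1.42 ± 0.34 (SE, limma FDR = 0.00434) against day 8. Its mean in BF was 901 ± 98.4 TPM on day 0, 484 ± 34.2 TPM on day 2 and 1203 ± 261 TPM on day 4 (SD, n = 3). In IMF the means were 1282 ± 412 TPM, 924 ± 127 TPM and 816 ± 144 TPM (SD, n = 3). Day 2 was the lowest of these in BF. Within BF the step from day 0 to day 2 was called for 18 entries (4.19%), ssc-miR-1 among them (log2 fold change -0.89, limma FDR = 0.0217), and within IMF for none (0.0%, 68 at an unadjusted p under 0.05). These steps share the day-2 libraries with the comparison of the sources. ssc-miR-138 had a larger difference later: it changed by 2.32 ± 0.60 (SE, limma FDR = 0.0165) against day 4, with BF at 1.60 ± 0.66 TPM on day 2 and 19.0 ± 22.3 TPM on day 4 (SD, n = 3).

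In the DLK1-DIO3 region ssc-miR-381-3p had a log2 fold change of 1.13 at the end of induction, against 2.16 before it and 1.25 and 2.32 on the later days. Its difference on day 2 was smaller than on day 0, by a change of -1.03 ± 0.25 (SE, limma FDR = 0.0296), and smaller than on day 8, by -1.19 ± 0.25 (SE, limma FDR = 0.00138). Its mean in BF was 4368 ± 444 TPM on day 0 and 11088 ± 2661 TPM on day 2 (SD, n = 3). In IMF the means were 19656 ± 3089 TPM and 23808 ± 1592 TPM (SD, n = 3). The BF libraries thus rose from day 0 (log2 fold change 1.32, limma FDR = 0.0217), a step that again shares the BF-2d libraries. ssc-miR-758 also had a smaller difference on day 2 than on day 0, by -1.04 ± 0.27 (SE, limma FDR = 0.0346). Against day 8, ssc-miR-758, ssc-miR-432-5p and ssc-miR-136-3p had smaller differences by -1.72 ± 0.27, -1.23 ± 0.32 and -1.51 ± 0.26 (SE, limma FDR = 4.8e-05, 0.0082 and 0.000129). The median log2 fold change of the 13 listed entries went from 1.91 at the start of induction to 1.07 at its end, and was 0.96 and 2.30 on the later days.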

How the data were processed

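Small RNA libraries of pig adipocytes (8 groups of 3, from 2 depots on 4 days) were sequenced by the authors as 50 nt single-end reads. The authors mapped the reads to Sscrofa11.1 with Bowtie without mismatches, removed other small RNAs, matched known miRNAs to miRBase and predicted new ones with miRDeep2; their own test was DESeq2. The deposited values, named TPM, are RPM: the reads of an entry in a library, scaled so that all its miRNA reads sum to 1000000. The steps between low values gave back whole reads for 100.0% of 38088 values (within 0.001 of a whole read). Depth on day 2 was 8078414 to 13093241 reads, and intervals and floors cover counting error only.

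Libraries were grouped by their labels. Entries whose mean over all 24 libraries reached 1 TPM were tested with limma 3.58.1 (R 4.3.3, moderated with a mean trend) on log2(TPM + 1) over the 6 day-2 libraries, with Benjamini-Hochberg FDR over all 430. A DE-miRNA has FDR under 0.05 and a fold change above 1.5. Fold changes on this scale understate those of rare entries. The filter takes both sources together, so an entry high in 1 source alone can pass it. Differences between days were contrasts in a fit of all 24 libraries. Alternatives were edgeR 4.0.16 and DESeq2 1.42.0 on whole reads, median-of-ratios scaling, other filters and pseudocounts, a replicate block and leaving out each library. The steps were tested on simulated data. Reads that match more than 1 miRNA equally well cannot be divided between them, and 24 tested entries share all their values with another entry.

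The members, gene lists and tests were chosen with earlier results of these data known. Named were the 12 known DE-miRNAs with the largest log2 fold change in each direction, up to 4 new entries in each direction, the 10 most abundant entries, every DE-miRNA of a list or otherwise its 2 most abundant tested members, up to 6 known entries with the smallest FDR in each contrast of days, and their other arms, seed relatives and neighbours within 10 kb. Ties in FDR at the last place were broken by the order of the deposited entries. Entries named in counts of 5 or fewer, those measured by qRT-PCR, and marker miRNAs at 0 or under the floor were also named.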

Additional observations from a re-analysis of the deposited data

Results flagged for a closer look

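For 18 results the difference between IMF and BF on day 2 departed from that on another day by the contrast of contrasts (limma FDR under 0.05 over all 430 entries). They are 6 known miRNAs from each contrast, taken by smallest FDR, with ties taken in the order of the deposited entries. Left out by a tie at the last place were ssc-miR-758 against day 0 (-1.04 ± 0.27, SE, limma FDR = 0.0346) and 2 against day 4. These were ssc-miR-96-5p at 2.71 ± 0.64 and ssc-miR-29b at 1.60 ± 0.38 (SE, limma FDR = 0.00985 for each). Each value is the log2 difference, IMF minus BF, on day 2 minus the same on the other day. No cause was tested.

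Against day 0 the largest was ssc-miR-146b, a regulator of inflammation, at -2.47 ± 0.32 (SE, limma FDR = 1.8e-05), past the threshold in all 20 alternatives. The hypoxia miRNA ssc-miR-210 followed at -1.85 ± 0.33 (SE, limma FDR = 0.00125), also in all 20. The other 4 depended on the processing. ssc-miR-224 at -1.77 and ssc-miR-99a-3p at 1.51 passed in 11 and 13 of 19 alternatives. ssc-miR-381-3p at -1.03 and ssc-miR-27b-3p at 1.06 passed in 11 of 20 each. ssc-miR-224 was rare, with means on day 2 of 0.565 TPM in BF and 0.842 TPM in IMF. In BF on day 0 its mean was 0.102 TPM.

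Against day 4 ssc-miR-132 stood at 1.49 and ssc-miR-212, its neighbour in the genome, at 1.70. ssc-miR-212 passed in 18 of 20 alternatives and ssc-miR-132 in all 20. ssc-miR-210 was at 1.70 and ssc-miR-1 at 1.48, each past the threshold in all 20. ssc-miR-452 at 2.42 and ssc-miR-187 at -1.35 passed in all 19 that could be run for them. Both were rare in BF on day 2, and ssc-miR-452 had 13, 13 and 0 reads in the BF-2d libraries. The mean of ssc-miR-187 in BF was 0.970 TPM on day 2 and 0.0705 TPM on day 4.

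Against day 8 the DLK1-DIO3 miRNAs ssc-miR-758, ssc-miR-411, ssc-miR-136-3p and ssc-miR-127 stood at -1.72, -2.09, -1.51 and -1.43, so that IMF exceeded BF by less on day 2. ssc-miR-365-5p stood at 1.57 and ssc-miR-183 at 3.05. These 6 passed in all 20 alternatives.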

How the results depend on the processing

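The number of calls of day 2 depends on which library is left out. With 1 library left out the count ranged from 2 to 85, with 1 to 26 entries higher and 1 to 59 lower in IMF: 8, 31 and 85 without BF-2d replicates 1, 2 and 3, and 2, 8 and 2 without IMF-2d replicates 1, 2 and 3. Without a filter on low values 2 were called, 1 higher and 1 lower. edgeR called 68, of which 38 were higher, DESeq2 63 and median-of-ratios scaling 60, of which 37 and 36 were higher, sharing 48, 43 and 46 with the 53. Other settings gave 42 to 69 calls. ssc-miR-196b-5p and ssc-miR-378 were called in all 15 alternatives. Pairing by replicate number was looked at in the deviations of each library from the mean of its group, entry by entry. Between same-numbered BF-2d and IMF-2d libraries these deviations correlated at 0.112, -0.026 and -0.006. For 1 of 3 BF-2d libraries the best correlation was with its own number. With 3 libraries in each group this cannot decide whether the numbers pair the libraries. A replicate block gave 9 calls, 3 higher and 6 lower, all among the 53, and 11, 36 and 56 for the contrasts of day 2 with days 0, 4 and 8.

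For the contrast with day 0 (10 entries) the count was 4 without a filter, 17 with median-of-ratios scaling, 20 with edgeR, 30 with DESeq2 and 2 to 26 with 1 library left out (26 without BF-2d replicate 3, and 2 to 4 without BF-2d replicates 1 and 2, BF-0d replicates 1 and 3, IMF-0d replicates 1, 2 and 3 and IMF-2d replicate 3). For day 4 (33 entries) it was 15 without a filter, 18 with median-of-ratios scaling, 13 with edgeR and 12 to 64 with 1 library left out (12 without BF-2d replicate 3, 64 without BF-4d replicate 1, and 17 to 21 without BF-4d replicate 3, IMF-2d replicates 1 and 3 and IMF-4d replicates 2 and 3). For day 8 (56 entries) it was 30 with a mean of at least 10 TPM and 45 to 69 with 1 library left out. The cause of these shifts was not tested. Leaving out 1 library could not turn the direction of the 53, since their libraries did not overlap between the sources. The balance of calls turned from more lower to more higher with median-of-ratios scaling, edgeR and DESeq2. Entries under 3 reads, worth 0.229 to 0.371 TPM, in both sources cannot be compared at this depth.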
